A study of Homo sapiens with 14 samples.

Results

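The mRNAs of laminins, integrins and other basement membrane genes were followed in CWR22RV1 cells treated with 4 inhibitors of glycan synthesis. A list of 38 genes was matched by gene symbol or NCBI gene number, and 32 of them, of the 27819 genes that the tables share, had a mean of at least 10 counts in some group and were kept. The 6 that did not were LAMA1, LAMA2, LAMA4, ITGB3, ITGB6 and COL4A1. Each of the 32 had that mean in the DMSO group too, so none was kept only because an inhibitor raised it. By role they were 6 laminin chains, 9 integrin alpha subunits, 4 integrin beta subunits, 3 type IV collagen chains, 4 nidogen and heparan sulfate proteoglycan core genes, 2 other matrix glycoproteins and 4 other matrix receptors.

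A basement membrane is the thin sheet that epithelial cells rest on, and it is assembled from laminins, type IV collagen, nidogens and heparan sulfate proteoglycans. Each laminin joins an alpha, a beta and a gamma chain, and each integrin joins an alpha and a beta subunit that span the cell membrane and tie the sheet to the cytoskeleton. The basal cells of the normal prostate rest on a laminin that contains LAMA3 and LAMB3. Many of these proteins carry sialic acid or fucose on their glycans, and the laminin-binding sugar of dystroglycan is built on O-linked mannose.

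CWR22RV1 is an established human prostate cancer cell line that expresses the androgen receptor, and all groups were this 1 line. Cells were treated for 72 h with DMSO, the vehicle (3 libraries), Fucotrim I at 30 μM (3), Fucotrim II at 60 μM (2), SGN-2FF at 100 μM (3) or P-SiaFNEtoc at 2 μM (3). Both Fucotrims are rhamnose-1-phosphate derivatives aimed at the enzyme GMDS of GDP-fucose synthesis, SGN-2FF is a fluorinated fucose that also lowers fucosylation, and P-SiaFNEtoc blocks sialylation. The poly(A) RNA libraries held 12553094 to 19981453 counts on genes. All 10 markers of luminal prostate cancer cells were counted in DMSO, with a median sum of 2581 CPM (counts scaled to library size with TMM factors), while the basal marker TP63 had 0 to 2 counts per library and KRT5 0 to 1. The 4 basal markers summed to a median of 1.11 CPM in DMSO, 2.03 with Fucotrim I, 1.54 with Fucotrim II, 1.75 with SGN-2FF and 2.02 with P-SiaFNEtoc, most of it KRT15, with a mean of 1.09 CPM in DMSO and 1.86 with both Fucotrim I and P-SiaFNEtoc. The luminal sum had a median of 3436 CPM with Fucotrim I, 3292 with Fucotrim II, 3170 with SGN-2FF and 2986 with P-SiaFNEtoc, KRT8 was its most abundant gene in each group, and its part in the results was not tested. The defining markers of endothelium summed to at most 0.335 CPM in any library, and the fibroblast and smooth muscle list to 23.4 CPM in DMSO (median) and up to 32.8 CPM with Fucotrim II (median), with COL1A1 its most abundant gene. The 5 leukocyte markers summed to 5.39 to 6.54 CPM in DMSO and had medians of 5.74 CPM with Fucotrim I, 6.58 with Fucotrim II, 7.49 with SGN-2FF and 7.25 with P-SiaFNEtoc. CD68 was the most abundant of them, with a mean of 5.34 CPM in DMSO and 7.29 with SGN-2FF, while CD3E and MS4A1 had 0 counts in every library. The part of these lists in the results was not tested. In bulk RNA, fewer cells of a kind and less RNA per cell cannot be told apart.

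The Fucotrim libraries varied more among themselves than those of the other groups. The chi-square statistic per gene between replicates was 24.2 for the Fucotrim II pair and 17.9 for replicates 1 and 3 of Fucotrim I, against 1.80 to 4.37 in DMSO. Without Fucotrim I replicate 1, 14 members were called, 13 of them shared with the fit of all libraries. Without Fucotrim II replicate 1 or 2, 18 and 17 were called, 16 of them shared in both cases. A fit without 1 of the Fucotrim II libraries leaves a single treated library, which is assumed to vary like the DMSO libraries, so these counts say nothing of the spread among treated cells, and the same holds for each such value below. The shares of all genes called in these fits without 1 library are not given here. The labels give no sequencing batch. The SGN-2FF libraries carry later sample numbers than all others, and whether they were prepared or sequenced together with the DMSO libraries is not given in the sources used here, so a batch that the libraries of 1 inhibitor shared cannot be told apart from the inhibitor. The 4 comparisons share the 3 DMSO libraries, and the doses differ, so values of the inhibitors are given side by side and were not tested against each other.

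To show where the vehicle-treated cells stood, levels were first compared between genes as CPM per kb of merged exons. ITGB5, the beta subunit that pairs with ITGAV, had the highest level of the 32 members at 45.2 ± 2.81 CPM per kb (SD, n = 3). LAMC1, the gamma chain of most laminins, followed at 36.3 ± 0.919 and DAG1, which encodes dystroglycan, at 36.3 ± 1.2, with overlapping libraries. SDC1 lay at 25.9 ± 2.02 CPM per kb. Of the basement membrane proteoglycans AGRN (agrin) lay highest at 19.96 ± 1.65 CPM per kb, overlapping LAMB2 at 19.7 ± 0.308. The lowest was HSPG2, which encodes perlecan, at 0.0664 ± 0.0110 CPM per kb, and it overlapped COL4A6 at 0.0803 ± 0.00762.

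Among the integrin alpha subunits, ITGA2 at 4.26 ± 0.188 CPM per kb, ITGAV at 4.20 ± 0.219 and ITGAE at 3.93 ± 0.0170 were the highest, and the libraries of each overlapped those of the next. The most abundant laminin chains per length were LAMC1, LAMB2 and LAMA5 (11.7 ± 0.636 CPM per kb), while LAMB1, LAMA3 and LAMB3 lay at 1.78 ± 0.204, 1.44 ± 0.0389 and 1.12 ± 0.156. The plot of DMSO levels by gene shows this order.

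**Figure D1:**
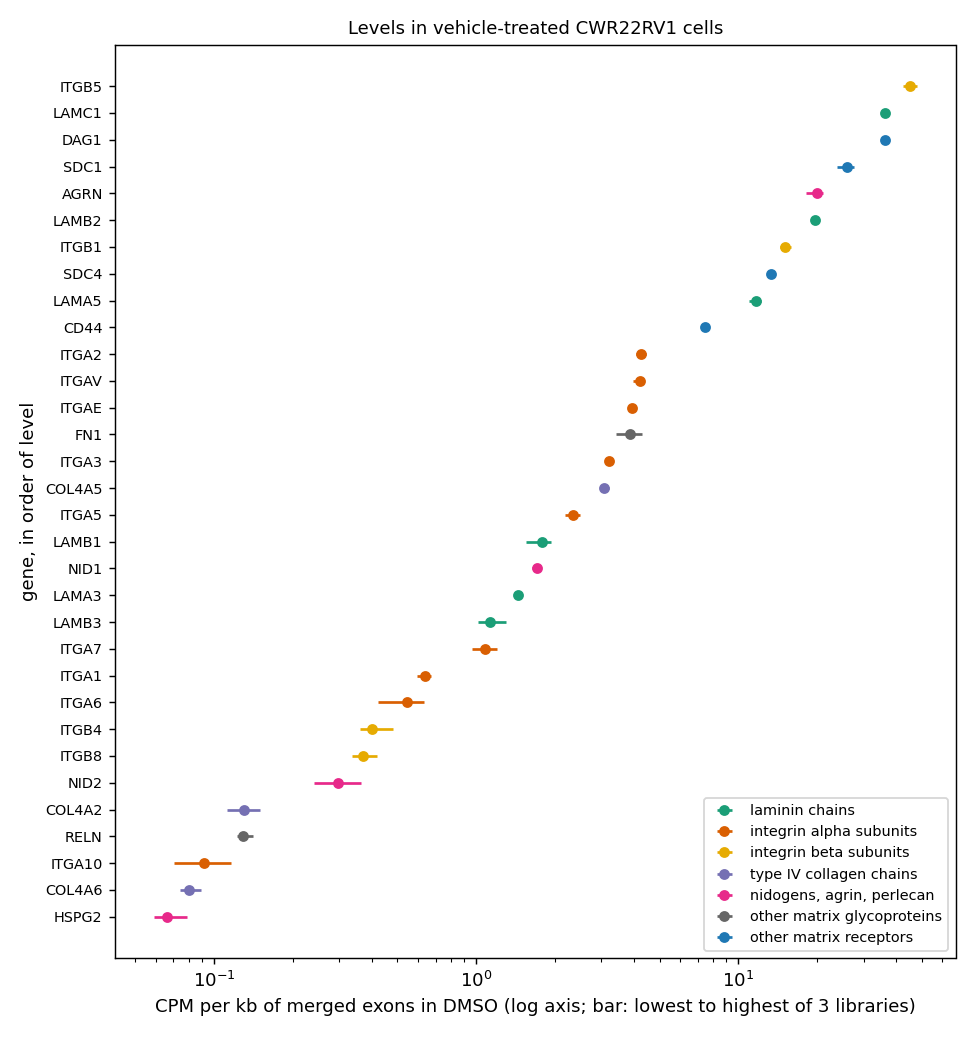
Level of each of the 32 members in DMSO, in CPM per kb of merged exons on a log axis, with the mean as a point, the lowest and highest of 3 libraries as a bar, and the role as colour. Levels run from 45.2 for ITGB5 down to 0.0664 for HSPG2.

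Each inhibitor was then compared with DMSO by the quasi-likelihood test of edgeR, with p-values adjusted over all genes tested by the Benjamini-Hochberg method, and a gene was called at an adjusted p under 0.05. With Fucotrim I, 14 of 31 members tested were called (45.2%), beside 43.8% of all 14188 genes. Of these, 10 were higher and 4 lower, beside 21.6% of all genes higher and 22.1% lower, and the libraries of 17 members did not overlap those of DMSO, beside 52.6% of all genes. The median log2 fold change of the members was 0.05, or 0.0019 without DMSO replicate 2, and that of all genes was 0.00. Members were thus called about as often as genes at large.

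With Fucotrim II, 18 of 32 members were called (56.3%), beside 51.4% of all 14617 genes, again a share near the background. Of these, 11 were higher and 7 lower, beside 25.6% and 25.7% of all genes, and 20 did not overlap DMSO, beside 67.7%. The median of the members was 0.09 (log2) and that of all genes 0.01, and with 1 library left out it ranged from 0.019 (without Fucotrim II replicate 1) to 0.16 (without DMSO replicate 1). With SGN-2FF, 15 of 32 members were called (46.9%), 11 higher and 4 lower, beside 20.6% of all 14312 genes, 11.5% higher and 9.08% lower. Here 19 members did not overlap DMSO, beside 36% of all genes, and the median was 0.09 against 0.00, or 0.030 without SGN-2FF replicate 2 and 0.14 without SGN-2FF replicate 3. With P-SiaFNEtoc, 10 of 31 members were called (32.3%), 9 higher and 1 lower, beside 16.3% of all 14259 genes, 9.02% higher and 7.33% lower. The libraries of 14 did not overlap DMSO, beside 33.7%, and the median was 0.07 against 0.00, or 0.032 without DMSO replicate 2. The shares with SGN-2FF and P-SiaFNEtoc lay above the background, and since the members were chosen with results in view they carry no test. The plot of fold changes by member shows each value with its standard error.

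**Figure D2:**
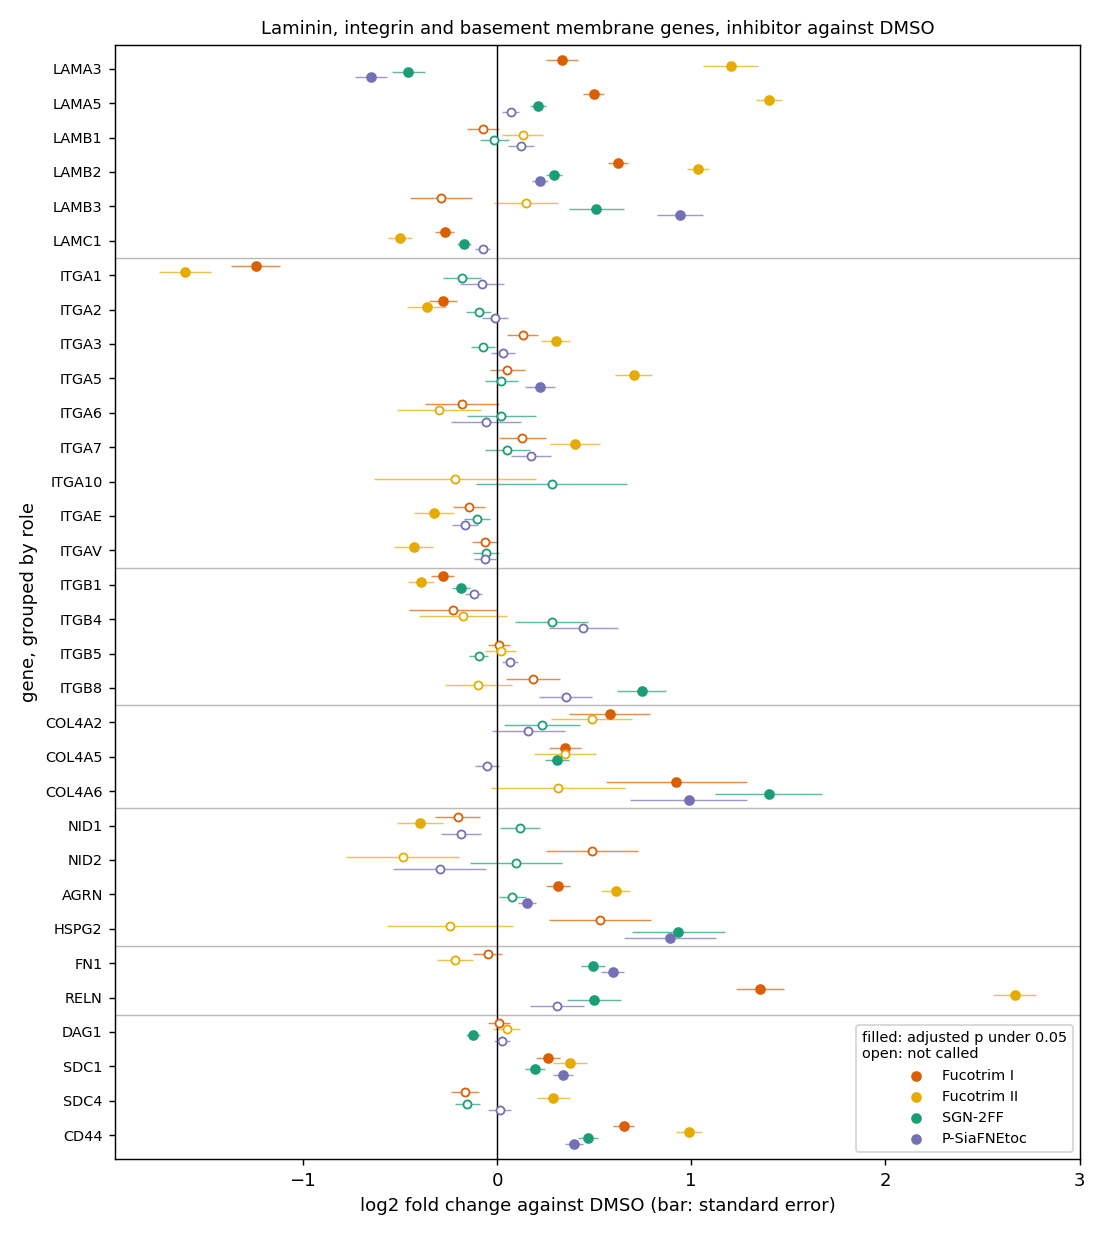
Log2 fold change against DMSO of each member, by role, with its standard error as a bar. Colours stand for the inhibitors, filled points for an adjusted p under 0.05 and open points for the rest. RELN with Fucotrim II lies farthest right at 2.67 and ITGA1 with Fucotrim II farthest left at -1.60.

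The laminin chains moved in different directions. LAMB2 and LAMA5 were higher with the Fucotrims while LAMC1, the chain that partners both, was lower, and LAMA3 was higher with both Fucotrims and lower with SGN-2FF and P-SiaFNEtoc. Of the 6 chains, 3 rose and 1 fell with each Fucotrim, 3 rose and 2 fell with SGN-2FF, and 2 rose and 1 fell with P-SiaFNEtoc. The shares called were 66.7%, 66.7%, 83.3% and 50%, beside 43.8%, 51.4%, 20.6% and 16.3% of all genes. The median log2 fold change of the chains was 0.13, 0.59, 0.10 and 0.10 in that order.

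LAMB2 (NCBI gene 3913, hg38 chr3:49121114-49133118, minus strand), the beta chain of the laminins of mature basement membranes, lay at 133, 134 and 137 CPM in the 3 DMSO libraries. It lay at 214, 192 and 216 CPM with Fucotrim I and at 276 and 280 CPM with Fucotrim II. With SGN-2FF it lay at 165, 169 and 158 CPM, and with P-SiaFNEtoc at 158, 154 and 159 CPM. No treated library was as low as the highest of DMSO. LAMB2 rose by 0.62 ± 0.05 (SE) with Fucotrim I (adjusted p = 1.75e-08), 1.04 ± 0.06 with Fucotrim II (4.8e-06), 0.29 ± 0.04 with SGN-2FF (8.27e-06) and 0.22 ± 0.04 with P-SiaFNEtoc (0.000308).

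LAMA5 (3911, chr20:62307955-62367312), the widespread alpha chain of adult epithelia, had 169, 157 and 175 CPM in DMSO. It had 235, 223 and 247 CPM with Fucotrim I and 429 and 453 CPM with Fucotrim II, with no overlap. The log2 fold changes were 0.50 ± 0.05 (adjusted p = 4.18e-07) and 1.40 ± 0.07 (3.06e-06). With SGN-2FF it had 194, 193 and 187 CPM (0.21 ± 0.04, adjusted p = 0.000779), and with P-SiaFNEtoc 183, 173 and 166 CPM, which overlapped DMSO (0.07 ± 0.05, 0.311). LAMC1 (3915, chr1:183023420-183145592) had 311, 298 and 311 CPM in DMSO, 262, 252 and 247 with Fucotrim I and 210 and 225 with Fucotrim II. It had 268, 265 and 278 CPM with SGN-2FF and 299, 296 and 276 with P-SiaFNEtoc. LAMC1 fell with the first 3 inhibitors, by 0.27, 0.50 and 0.17 on the log2 scale (adjusted p = 0.000107, 0.000198 and 0.00148), and with P-SiaFNEtoc it was at -0.07 ± 0.04 (0.216).

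LAMA3 (3909, chr18:23689453-23956222, plus strand), the alpha chain of the laminin of basal epithelial cells, was the member called in both directions. It lay at 21.6, 20.5 and 20.7 CPM in DMSO, at 24, 27.6 and 27.6 CPM with Fucotrim I and at 57.6 and 39.2 CPM with Fucotrim II. It lay at 13.6, 16.7 and 14.7 CPM with SGN-2FF and at 13.9, 14.1 and 11.9 CPM with P-SiaFNEtoc. In none of the 4 comparisons did the libraries overlap DMSO, and the 2 Fucotrim II libraries stood well apart from each other. The log2 fold change was 0.34 ± 0.08 with Fucotrim I (adjusted p = 0.00237), 1.2 ± 0.14 with Fucotrim II (0.000148), -0.46 ± 0.08 with SGN-2FF (0.000284) and -0.65 ± 0.08 with P-SiaFNEtoc (1.26e-06).

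The 250 bases before the RefSeq start of LAMA3 (GRCh38.p14 chr18:23872770-23873019, plus strand) are shown since 32 of the 38 listed genes had an entry in the RefSeq promoter table and LAMA3 was the only one of them whose upstream window held the AP-1 motif TGANTCA, searched on both strands, which it reads alike. This start lies inside the gene, downstream of the first GENCODE start, and the 2 matches are in capitals.
LAMA3: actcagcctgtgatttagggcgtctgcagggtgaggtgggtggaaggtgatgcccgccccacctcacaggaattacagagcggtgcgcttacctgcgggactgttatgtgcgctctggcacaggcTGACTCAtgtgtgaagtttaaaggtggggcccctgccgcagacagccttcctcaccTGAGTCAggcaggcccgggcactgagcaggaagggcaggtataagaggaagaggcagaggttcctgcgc
Of 27305 promoters, 6.6% held this motif in the same window. Whether a factor binds there was not measured.

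LAMB3 (3914, chr1:209614870-209652425), the beta chain that joins LAMA3 in that laminin, had 6.05, 4.72 and 4.89 CPM in DMSO and 10.2, 9.96 and 9.89 CPM with P-SiaFNEtoc. With SGN-2FF it had 6.36, 8.5 and 7.14 CPM. Both groups lay above DMSO, and the log2 fold change was 0.94 ± 0.12 with P-SiaFNEtoc (adjusted p = 1.24e-06) and 0.51 ± 0.14 with SGN-2FF (0.0106). The call with SGN-2FF was lost without DMSO replicate 3 (0.0515) or SGN-2FF replicate 2 (0.131). With Fucotrim I LAMB3 had 3.94, 4.53 and 4.35 CPM (-0.29 ± 0.16, adjusted p = 0.152), and with Fucotrim II 5.35 and 6.28 CPM (0.15 ± 0.17, 0.482). With P-SiaFNEtoc, LAMA3 was thus lower while LAMB3 was higher. LAMB1 was not called with any inhibitor, with log2 fold changes of -0.07 to 0.13.

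**Figure D3:**
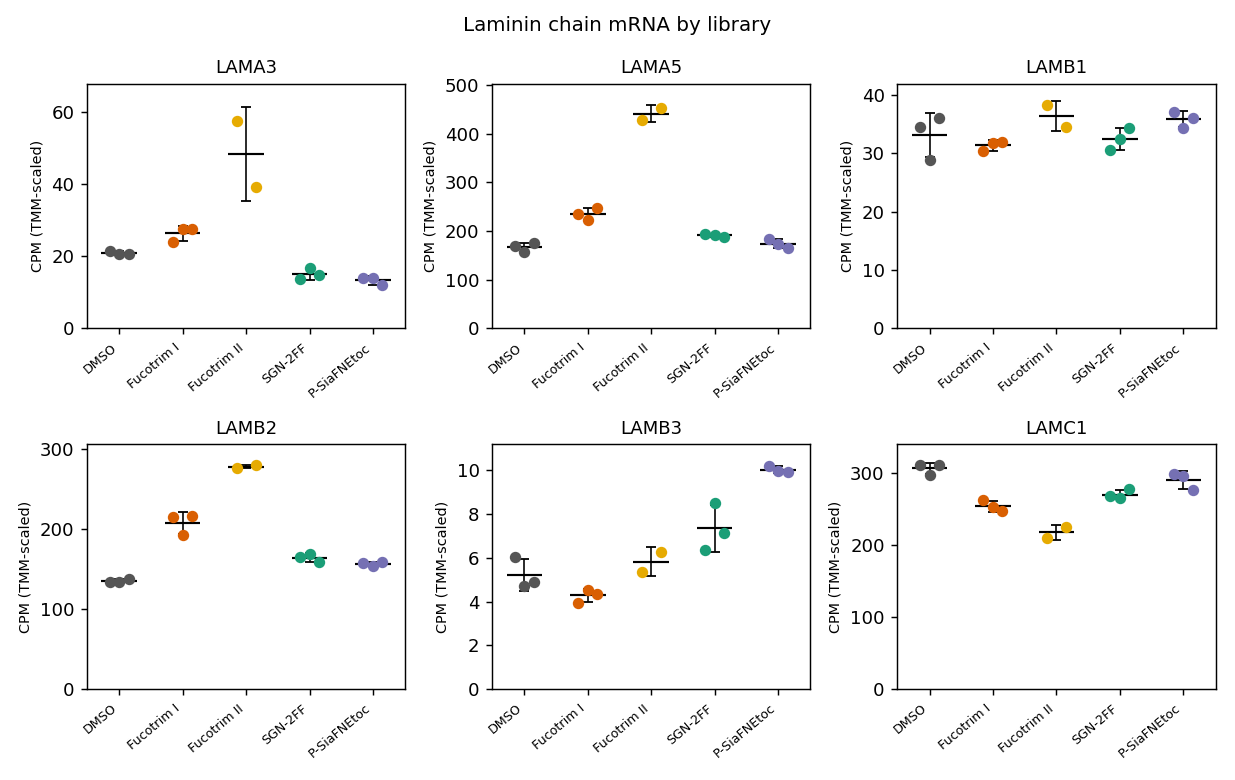
CPM of the 6 kept laminin chains in each library (points), with the group mean (line) and SD (bar), in DMSO and with each inhibitor. LAMB2 lies above DMSO in every treated library, and LAMA3 lies above DMSO with the Fucotrims and below it with SGN-2FF and P-SiaFNEtoc.

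Of the integrin alpha subunits, 3 of 9 rose and 4 fell with Fucotrim II (77.8% called, beside 51.4% of all genes). This share was not stable. The calls of ITGA2, ITGA3 and ITGAE were lost with the replicate numbers of the titles as a block. At an adjusted p under 0.01, those of ITGA2, ITGA7 and ITGAE were lost. The shares of all genes in these settings are not given here. With Fucotrim I 2 of 8 were called, both lower (25%, beside 43.8%), and with P-SiaFNEtoc 1 of 8 was called, higher (12.5%, beside 16.3%). With SGN-2FF, which called 20.6% of all genes, edgeR called 0 of 9, with 0 at an unadjusted p under 0.05 and 0 called by DESeq2 or limma-voom. ITGA10, at 1 to 15 counts per library, was tested only with Fucotrim II and SGN-2FF and was not called.

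ITGA1 (3672, chr5:52787916-52959209), the alpha subunit of a collagen receptor, had the largest fall of the members. It lay at 12, 12.5 and 11 CPM in DMSO, at 4.59, 4.80 and 5.69 CPM with Fucotrim I and at 4.03 and 3.79 CPM with Fucotrim II. It lay at 10.8, 9.81 and 10.7 CPM with SGN-2FF and at 12.4, 12.5 and 8.57 CPM with P-SiaFNEtoc. Both Fucotrim groups were far below DMSO, with log2 fold changes of -1.24 ± 0.13 (adjusted p = 1.85e-07) and -1.60 ± 0.13 (2.71e-05), and the other groups were not called (-0.18 ± 0.10, 0.21, and -0.08 ± 0.11, 0.702). The gene PELO lies inside ITGA1, and other genes overlap 5.8% of the exon bases of ITGA1 on the same strand and 8.1% on the opposite one. PELO itself fell by 0.19 with Fucotrim I and by 0.26 with Fucotrim II on the log2 scale (adjusted p = 0.0443 and 0.0195), and was looked up after the values of ITGA1 were seen.

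ITGA5 (3678, chr12:54395261-54419266), which pairs with ITGB1 to bind fibronectin, had 18.4, 16.1 and 17.3 CPM in DMSO and 26.7 and 29.6 CPM with Fucotrim II. The log2 fold change was 0.70 ± 0.09 (adjusted p = 0.000283). It had 18.1, 17.4 and 18.1 CPM with Fucotrim I, 16.1, 17.8 and 18.2 CPM with SGN-2FF and 19.5, 20.8 and 19.9 CPM with P-SiaFNEtoc. Only the last of these was called (0.22 ± 0.08, adjusted p = 0.0484), and that call was lost without DMSO replicate 2 or 3 or any 1 of the P-SiaFNEtoc libraries (0.0707 to 0.196), and by limma-voom (0.0546) and DESeq2 (0.149). ITGA2, the collagen-binding subunit, had 33.7, 32.2 and 35.2 CPM in DMSO. It had 28.1, 28.4 and 26.3 CPM with Fucotrim I and 29.0 and 23.6 CPM with Fucotrim II. ITGA2 was lower in both, by 0.28 and 0.36 on the log2 scale (adjusted p = 0.00391 and 0.0147), and the second was lost without DMSO replicate 3 (0.0549) and was -0.23 without Fucotrim II replicate 2. With SGN-2FF its CPM were 29.5, 32.0 and 32.2 and with P-SiaFNEtoc 36.0, 34.2 and 29.3, which was not called in either (0.329 and 0.937). With Fucotrim II ITGAV and ITGAE also fell (-0.43 and -0.33) and ITGA3 and ITGA7 rose (0.30 and 0.40), while ITGA6, the laminin-binding partner of ITGB4, was not called with any inhibitor. The call of ITGA7 was lost without DMSO replicate 1 or 2 or Fucotrim II replicate 1 (0.0698 to 0.101), and that of ITGAE without any 1 DMSO library or Fucotrim II replicate 2 (0.0565 to 0.109). Without Fucotrim II replicate 2, ITGAV was at -0.28 and ITGAE at -0.19. Other genes, HASPIN among them, lie opposite 7.6% of the exon bases of ITGAE. HASPIN fell by 0.92 with Fucotrim II (log2), and was looked up after the values of ITGAE were seen.

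Of the 4 beta subunits, ITGB1 (3688, chr10:32887273-33005792), the common partner of the collagen, laminin and fibronectin receptors, fell with the 3 fucosylation inhibitors. Its CPM were 232, 210 and 214 in DMSO, 191, 183 and 163 with Fucotrim I and 170 and 164 with Fucotrim II. They were 180, 192 and 200 with SGN-2FF and 205, 204 and 191 with P-SiaFNEtoc. All 4 treated groups lay below DMSO. The fall was 0.28 ± 0.06, 0.39 ± 0.07 and 0.19 ± 0.04 on the log2 scale in that order (adjusted p = 0.000604, 0.00115 and 0.00411), and P-SiaFNEtoc gave -0.12 ± 0.04 (0.054), which was called without DMSO replicate 2 (0.0193).

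ITGB8 (3696, chr7:20330702-20415754), whose pair with ITGAV activates latent TGF-beta, had 5.44, 6.34 and 5.08 CPM in DMSO and 9.01, 8.68 and 10.6 CPM with SGN-2FF. It rose by 0.75 ± 0.13 (log2, adjusted p = 0.000102), with no overlap. It had 8.13, 7.19 and 6.05 CPM with P-SiaFNEtoc, 6.53, 6.42 and 6.20 with Fucotrim I and 5.89 and 4.69 with Fucotrim II, and was called in none of these (0.0697, 0.294 and 0.665), though P-SiaFNEtoc was without DMSO replicate 2 (0.0372) or P-SiaFNEtoc replicate 3 (0.0291). ITGB5, the most abundant member, had 313, 277 and 294 CPM in DMSO and 261 to 321 CPM in the 11 treated libraries, and was not called with any inhibitor. Its log2 fold changes lay between -0.09 and 0.07, and with SGN-2FF it was called without DMSO replicate 2 (0.0242) or SGN-2FF replicate 1 (0.0334). ITGB4, the partner of ITGA6 in hemidesmosomes, was not called either (-0.23 to 0.44), except with P-SiaFNEtoc without DMSO replicate 1 (0.0409).

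Among the other matrix receptors, CD44 and SDC1 were above DMSO in every treated library. CD44 (960, chr11:35138882-35232402), the receptor for hyaluronan, had 75.4, 75.0 and 72.3 CPM in DMSO. It had 116, 116 and 117 CPM with Fucotrim I, 155 and 141 with Fucotrim II, 98.3, 98.1 and 110 with SGN-2FF and 94.4, 99.8 and 98.2 with P-SiaFNEtoc. The log2 fold changes were 0.65 ± 0.05 (adjusted p = 7.69e-09), 0.99 ± 0.07 (1.02e-05), 0.47 ± 0.05 (1e-07) and 0.39 ± 0.05 (2.59e-07) in that order.

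SDC1 (6382, chr2:20200797-20225433, minus strand), the heparan sulfate carrying syndecan of epithelia, had 95.7, 85.5 and 99.7 CPM in DMSO. Its CPM were 121, 106 and 109 with Fucotrim I and 113 and 131 with Fucotrim II. They were 110, 108 and 102 with SGN-2FF and 121, 120 and 113 with P-SiaFNEtoc. The gaps to DMSO were narrow, and the log2 fold changes were 0.26 ± 0.06 (adjusted p = 0.00242), 0.38 ± 0.09 (0.00554), 0.20 ± 0.05 (0.00766) and 0.34 ± 0.05 (1.39e-05). The SGN-2FF call was lost without DMSO replicate 2 or SGN-2FF replicate 1 or 2 (0.0510 to 0.0598). DAG1 had 269, 252 and 261 CPM in DMSO, 286, 242 and 257 with Fucotrim I, 255 and 287 with Fucotrim II and 263, 258 and 273 with P-SiaFNEtoc. With SGN-2FF it had 238, 243 and 232 CPM and fell by 0.12 (adjusted p = 0.0222), a call lost without DMSO replicate 1 or 3 or any 1 of the SGN-2FF libraries (0.0523 to 0.105). SDC4 rose with Fucotrim II by 0.29 ± 0.08 (0.017), which was lost without any 1 of the DMSO libraries or Fucotrim II replicate 2 (0.0572 to 0.106), and was at 0.16 without the latter. With Fucotrim I it was lower and not called (-0.16 ± 0.07, 0.0727), though the fall was called without Fucotrim I replicate 1 (0.0259).

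The upstream bases of SDC1 (GRCh38.p14 chr2:20225476-20225725, minus strand, RefSeq) are shown since it was above DMSO with each inhibitor and its window holds a GC box, GGGCGG on either strand, in capitals.
SDC1: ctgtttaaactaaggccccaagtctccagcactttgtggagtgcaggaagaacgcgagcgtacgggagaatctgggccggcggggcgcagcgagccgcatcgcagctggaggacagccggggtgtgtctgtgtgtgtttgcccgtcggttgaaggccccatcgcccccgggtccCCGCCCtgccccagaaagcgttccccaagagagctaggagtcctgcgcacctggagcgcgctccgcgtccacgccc
The box was present in 22 of the 32 listed genes with a table entry and in 42.3% of 27305 promoters. The CCAAT box was present in 10 genes and in 33% of promoters, and the TATA box TATAAA in 1 gene, ITGA6, and in 11.1% of promoters. No order among members was read from these matches.

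**Figure D4:**
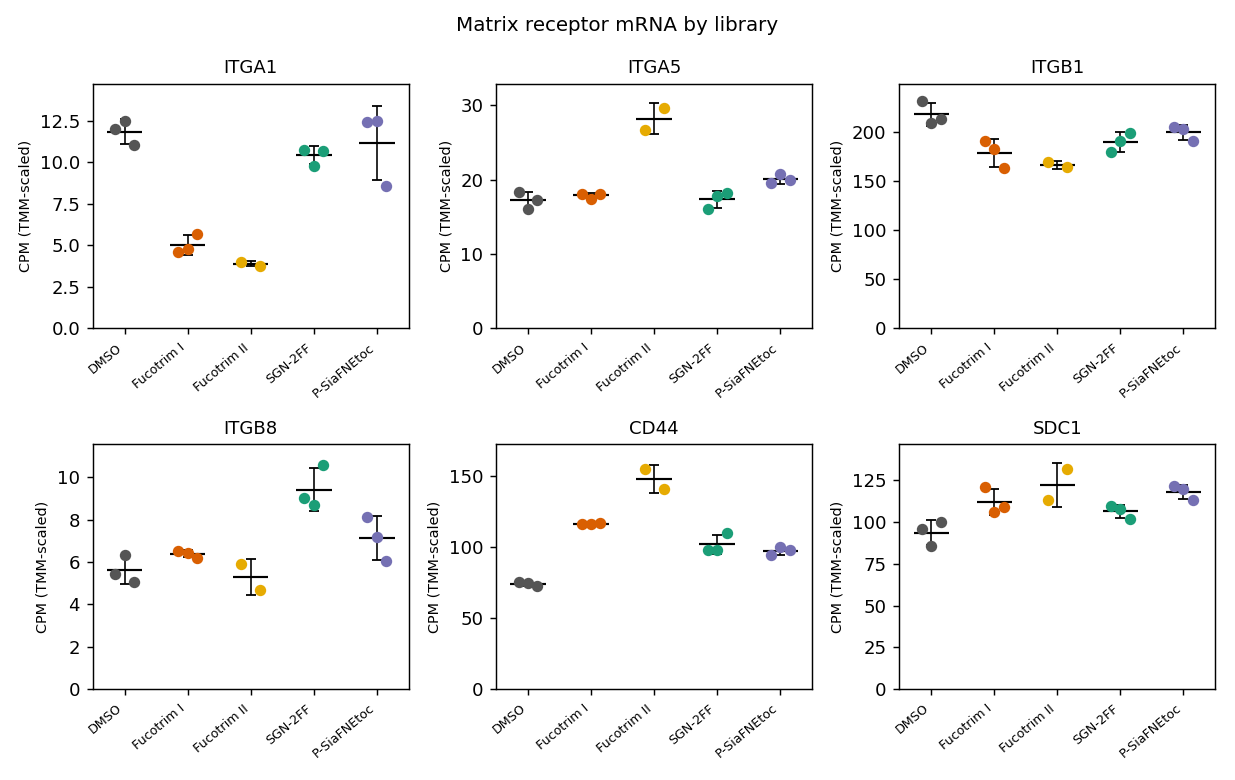
CPM of 6 matrix receptor genes in each library (points), with the group mean (line) and SD (bar). ITGA1 falls from 11 to 12.5 CPM in DMSO to at most 5.69 CPM with the Fucotrims, and CD44 and SDC1 lie above DMSO in every treated library.

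The matrix genes outside the laminins differed between inhibitors in which were called. RELN rose most with the Fucotrims, and FN1 and HSPG2 rose with SGN-2FF and P-SiaFNEtoc. RELN (5649, chr7:103471381-103989658), the secreted glycoprotein reelin, had 5.0, 4.39 and 4.32 CPM in DMSO, 12.3, 11.3 and 11.5 with Fucotrim I and 30.4 and 28 with Fucotrim II. The log2 fold changes were 1.35 ± 0.12 (adjusted p = 4.52e-08) and 2.67 ± 0.11 (1.79e-06), the largest rises of the members in both comparisons. With SGN-2FF it had 5.76, 6.72 and 6.76 CPM (0.50 ± 0.14, adjusted p = 0.0109), a call lost without DMSO replicate 3 (0.0505) or SGN-2FF replicate 2 (0.0671). With P-SiaFNEtoc it had 6.01, 5.99 and 4.91 CPM and was not called (0.31 ± 0.14, 0.13). Per length RELN was among the low members in DMSO, at 0.129 CPM per kb, and it reached 0.330 CPM per kb with Fucotrim I and 0.825 with Fucotrim II.

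FN1 (2335, chr2:215360440-215436073), which encodes fibronectin, had 74.1, 59.0 and 66.6 CPM in DMSO. It had 93.9, 92.3 and 92.5 CPM with SGN-2FF and 102, 102 and 97.4 CPM with P-SiaFNEtoc, both clear of DMSO. FN1 rose by 0.49 ± 0.06 (log2, adjusted p = 4.77e-06) and 0.60 ± 0.06 (8.04e-08). With Fucotrim I it had 66.8, 60.1 and 66.0 CPM and with Fucotrim II 57.5 in both libraries, and it was not called (-0.05 ± 0.07, 0.63, and -0.22 ± 0.09, 0.0812). With Fucotrim II both libraries lay below DMSO, and the fall was called without DMSO replicate 2 (0.028) and when all libraries were fitted together (0.0200).

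AGRN (375790, chr1:1020120-1056118), which links laminin to dystroglycan, had 225, 194 and 225 CPM in DMSO, 272, 246 and 282 with Fucotrim I and 328 and 331 with Fucotrim II. It rose by 0.31 ± 0.06 (adjusted p = 0.000361) and 0.61 ± 0.08 (0.000178). With P-SiaFNEtoc it had 242, 240 and 233 CPM (0.15 ± 0.05, 0.0226), a call lost without DMSO replicate 2 (log2 fold change 0.09, adjusted p = 0.183) or any 1 of the P-SiaFNEtoc libraries (0.0598 to 0.0966), and with SGN-2FF 234, 236 and 204 CPM (0.08 ± 0.07, 0.477). HSPG2 (3339, chr1:21822244-21937310) had few reads, 26, 20 and 17 counts in DMSO. It had 31, 37 and 31 counts with SGN-2FF and 51, 39 and 28 with P-SiaFNEtoc, and rose by 0.93 ± 0.24 (log2, adjusted p = 0.00634) and 0.89 ± 0.24 (0.00943), the latter not called without P-SiaFNEtoc replicate 1 (0.0524). In CPM this was 1.07 to 1.43 in DMSO, 2.20 to 2.36 with SGN-2FF and 1.76 to 2.46 with P-SiaFNEtoc. It had 26, 26 and 19 counts with Fucotrim I, or 1.59 to 1.86 CPM, all above DMSO (0.53 ± 0.26, 0.106). With Fucotrim II it had 21 and 14 counts, or 1.26 and 0.792 CPM, which overlapped DMSO (-0.24 ± 0.33, 0.563), and neither was called. Genes on the opposite strand overlap 11.7% of the exon bases of HSPG2, and the strand setting of the counting is not given in the sources used here. Of the nidogens, NID1 fell with Fucotrim II by 0.40 (0.0191), a call lost without DMSO replicate 1 or 3 or Fucotrim II replicate 1 (0.0536 to 0.0729), and NID2 was not called.

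The type IV collagen genes lie in head-to-head pairs, and the partners of a pair were counted at very different levels. COL4A1 had 0 or 1 count in each of the 14 libraries, while COL4A2 (1284, chr13:110305812-110513209, plus strand) had 39 to 46 counts in DMSO and 35 to 68 in treated libraries. Their RefSeq starts lie 127 bases apart. The bases between them that are in no GENCODE exon (GRCh38.p14 chr13:110307158-110307257, given on the plus strand, RefSeq) are shown since both genes start from them, with the GC box in capitals.
COL4A1-COL4A2: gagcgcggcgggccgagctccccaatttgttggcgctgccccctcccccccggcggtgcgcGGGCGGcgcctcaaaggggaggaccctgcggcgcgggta
COL4A5 and COL4A6 start 380 bases apart on chromosome X, and COL4A5 had 36.1 to 57.3 CPM with Fucotrim II, where COL4A6 had 0.735 to 1.14 CPM.

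COL4A5 (1287, chrX:108439838-108697545), the highest collagen IV chain per length, had 35.1, 38.2 and 36.2 CPM in DMSO. It had 39.6, 47.5 and 52.7 CPM with Fucotrim I and 42.3, 43.7 and 48.9 CPM with SGN-2FF. COL4A5 rose in both, by 0.35 ± 0.08 (adjusted p = 0.00212) and 0.31 ± 0.06 (0.000932). When all libraries were fitted together, neither was called (0.0615 and 0.194). It had 57.3 and 36.1 CPM with Fucotrim II, 1 library far above DMSO and 1 within it (0.35 ± 0.16, 0.0939), and was called by DESeq2 (0.0499). Without Fucotrim II replicate 2 it was called too (6.91e-07), in a fit whose single treated library was the high one and whose spread came from DMSO alone. It had 34.6, 36.7 and 34.3 CPM with P-SiaFNEtoc (-0.05 ± 0.06, 0.612).

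COL4A6 (1288, chrX:108155607-108439497) rested on few reads, 15, 13 and 11 counts in DMSO. It had 29, 33 and 23 counts with SGN-2FF (1.40 ± 0.27, adjusted p = 0.000553) and 30, 32 and 16 with P-SiaFNEtoc (0.99 ± 0.30, 0.0229), a call that was lost without DMSO replicate 2 or 3 or P-SiaFNEtoc replicate 2 (0.0618 to 0.17). With Fucotrim I it had 9, 31 and 18 counts, which overlapped DMSO (0.92 ± 0.36, 0.0455), and the call was lost without any 1 of the DMSO libraries or Fucotrim I replicate 2 or 3 (0.0689 to 0.358), with a log2 fold change of 0.49 without Fucotrim I replicate 2. With Fucotrim II it had 19 and 13 counts and was not called (0.475). COL4A2 was called with Fucotrim I (0.58 ± 0.21, 0.0293), where its libraries overlapped those of DMSO, and the call was lost without DMSO replicate 1 or 2 or Fucotrim I replicate 1 or 3 (0.0699 to 0.142). With Fucotrim II both libraries lay above DMSO but the difference was not called (0.49 ± 0.21, 0.0748), except when all libraries were fitted together (0.0484) or without Fucotrim II replicate 1 (0.0455).

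**Figure D5:**
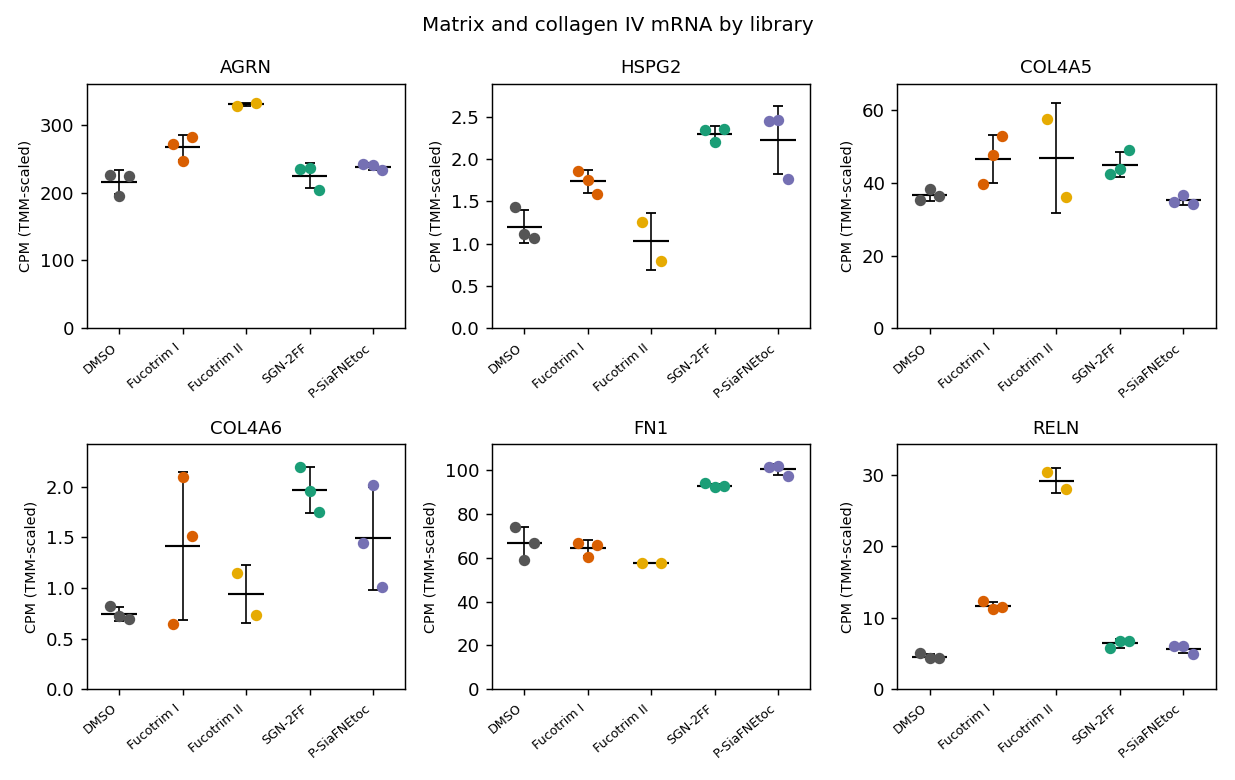
CPM of 6 matrix genes in each library (points), with the group mean (line) and SD (bar). RELN is highest with Fucotrim II, at 28 and 30.4 CPM, and FN1 and HSPG2 lie above DMSO with SGN-2FF and P-SiaFNEtoc.

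Other genes of the same pathways were counted from 4 further lists, and each share called is given beside that of all genes. Of 13 tested genes of the same families that were not members, 2 rose and 3 fell with Fucotrim I, 3 and 3 with Fucotrim II, 1 and 1 with SGN-2FF and 2 and 1 with P-SiaFNEtoc. The shares called were 38.5%, 46.2%, 15.4% and 23.1%, beside 43.8%, 51.4%, 20.6% and 16.3% of all genes, so the first 3 lay below the background. ITGA4, the leukocyte and fibronectin-binding alpha subunit, fell in each comparison, by 0.86, 1.30, 0.49 and 0.53 on the log2 scale. Its mean count was 91.3 to 108 over the libraries compared. The gene CERKL lies opposite 26.4% of the exon bases of ITGA4, and the strand setting of the counting is not given. COL18A1, the collagen of the epithelial basement membrane that yields endostatin, rose by 0.66 with Fucotrim I and by 0.96 with Fucotrim II. SLC19A1 lies opposite 18.5% of its exon bases, with the same limit. SDC2, a syndecan of mesenchymal cells, fell by 0.41 with Fucotrim I and by 0.29 with Fucotrim II, and rose by 0.64 with SGN-2FF and by 0.68 with P-SiaFNEtoc.

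Of 29 focal adhesion and hemidesmosome adaptors, 6 rose and 5 fell with Fucotrim I, 7 and 6 with Fucotrim II, 4 and 2 with SGN-2FF and 7 and 1 with P-SiaFNEtoc. The shares called were 37.9%, 44.8%, 20.7% and 27.6%, near or below the background of 43.8%, 51.4% and 20.6% with the first 3 inhibitors and above the 16.3% with P-SiaFNEtoc. FERMT2 (kindlin-2, an activator of integrins) and LIMS1 (PINCH1) each fell by 0.61 with Fucotrim II, and SHARPIN, an inhibitor of integrin activation, rose by 0.36 with Fucotrim I and by 0.65 with Fucotrim II. TNS3, a tensin, rose by 0.58 with SGN-2FF and by 0.56 with P-SiaFNEtoc.

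Of 17 genes of matrix assembly, crosslinking and proteolysis, 9 rose and 3 fell with Fucotrim II (median log2 fold change 0.31), 2 rose and 3 fell with Fucotrim I, and 3 rose with each of SGN-2FF and P-SiaFNEtoc. The share called was 70.6% with Fucotrim II, beside 51.4% of all genes, 29.4% with Fucotrim I, beside 43.8%, and 17.6% with each of the others, beside 20.6% and 16.3%. The collagen prolyl hydroxylases P4HA1 and P4HA2 rose by 0.77 and 1.16 with Fucotrim II, while the crosslinking enzymes LOX and PLOD2 fell by 0.52 and 0.51. TIMP1, the metalloproteinase inhibitor, rose in each comparison, by 0.30, 0.76, 0.22 and 0.29. Of 17 genes that glycosylate dystroglycan or belong to its complex, 3 rose and 4 fell with Fucotrim I, 2 and 5 with Fucotrim II, and 1 and 1 with each of SGN-2FF and P-SiaFNEtoc. These shares, 41.2% with each Fucotrim and 11.8% with each of the others, all lay below those of all genes. LARGE2, which extends the laminin-binding sugar, rose by 0.52, 0.80, 0.41 and 0.25 in the 4 comparisons. POMK, the O-mannose kinase, fell by 0.85 with Fucotrim II, and SGCB, a sarcoglycan, fell by 0.55 with Fucotrim I.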

How the data were processed

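RNA-seq counts of 14 libraries were used. The authors made stranded mRNA libraries, used Cutadapt for trimming, HISAT2 for mapping the single reads on hg38 and featureCounts for counting, and deposited raw counts per gene in 4 tables, 1 per inhibitor, that repeat the DMSO libraries. The annotation and strand setting are not given in the sources used here. Library depth was 12553094 to 19981453 counts, which limits the precision of members with few counts. The study states 3 biological repeats, and 2 Fucotrim II libraries were analysed here. The members, gene lists and tests were chosen with earlier results of these data known.

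Each inhibitor was fitted with DMSO alone in edgeR 4.0.16 (R 4.3.3) with filterByExpr (minimum count 10), TMM scaling and the robust quasi-likelihood test, with Benjamini-Hochberg adjustment. The study used limma-voom, which was an alternative here (limma 3.58.1), as was DESeq2 1.42.0. The SE was the log2 fold change divided by the root of F. CPM per library come from 1 TMM scaling of all libraries. Lengths and positions are GENCODE 44 (hg38), upstream sequences RefSeq GRCh38.p14. Values per library were given for members called with a log2 fold change of at least 0.58 in size or with all 4 inhibitors, and for the highest per length of each role in DMSO, with ITGB1 added after its values were seen. Of each list, named genes were among the 2 largest rises and falls with a mean of at least 50 counts, with ITGA4 and SDC2 followed in every comparison and PELO and HASPIN added after their neighbours' values were seen. Members called and not named in full were given by their fold change. Glycosylation sites in the proteins were not analysed here, and some genes of the lists are not reported here.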

Additional observations from a re-analysis of the deposited data

How the results depend on the processing

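Alternatives were the replicate block, leaving out each library, DESeq2 size factors, the DESeq2 test, limma-voom with and without quality weights, no filter, at least 10 counts in every library, an adjusted p under 0.01, one fit of all libraries and leaving out mitochondrial genes. The number of members called stayed within 1.5 times in all of them, at 12 to 15 with Fucotrim I, 13 to 20 with Fucotrim II, 11 to 16 with SGN-2FF and 7 to 12 with P-SiaFNEtoc, and no called member changed sign. DESeq2 did not call COL4A2 and COL4A6 with Fucotrim I (adjusted p = 0.0751 and 0.113), ITGA7 and NID1 with Fucotrim II (0.0542 and 0.0856), RELN with SGN-2FF (0.0576) or ITGA5 with P-SiaFNEtoc (0.149). Limma-voom, the study's method, did not call COL4A6 with Fucotrim I (0.114) or ITGA5 with P-SiaFNEtoc (0.0546), and with quality weights it did not call COL4A6 with Fucotrim I (0.0610) or ITGA7 and NID1 with Fucotrim II (0.0608 and 0.0662). One fit of all libraries did not call COL4A5 with Fucotrim I (0.0615), COL4A5, DAG1 and SDC1 with SGN-2FF (0.194, 0.134 and 0.0781) or AGRN, COL4A6 and ITGA5 with P-SiaFNEtoc (0.17, 0.0940 and 0.103). ITGA5 with P-SiaFNEtoc was also not called without the filter (0.0562) or at 10 counts in every library (0.0506). Calls were also gained. One fit of all libraries called COL4A2, higher, and FN1, lower, with Fucotrim II (0.0484 and 0.0200). ITGB8, higher with P-SiaFNEtoc, was called with quality weights (0.0279), ITGB1, lower with P-SiaFNEtoc, without the filter (0.0282) and at 10 counts in every library (0.0499), and ITGB5, lower with SGN-2FF, without the filter (0.0482). ITGA3, higher with Fucotrim I, was called without Fucotrim I replicate 2 (0.0489). DAG1, higher with Fucotrim II, was called without Fucotrim II replicate 1 (0.0449), a fit with a single treated library. Leaving out 1 library, the members' median log2 fold change ranged from 0.0019 to 0.062 with Fucotrim I, 0.019 to 0.16 with Fucotrim II, 0.030 to 0.14 with SGN-2FF and 0.032 to 0.088 with P-SiaFNEtoc. It was 0.018 with Fucotrim I without the filter, and with Fucotrim II 0.142 at 10 counts in every library and 0.140 without mitochondrial genes. The cause was not tested.

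The replicate numbers were not taken to pair the libraries. The correlations of same-numbered deviations were 0.125, 0.107 and 0.024 with Fucotrim I, 0.016, -0.023 and -0.096 with SGN-2FF and -0.040, 0.024 and -0.028 with P-SiaFNEtoc. With Fucotrim II they were -0.146 and -0.192 by the titles and 0.192 and 0.048 by the library names. With the replicate block, 15, 13, 15 and 12 members were called. With the block by library names, which differ from the titles for Fucotrim II, 19 were. The shares of all genes called with a block are not given here either. By the titles ITGA2, ITGA3, ITGAE, NID1 and SDC4 were not called with Fucotrim II (adjusted p = 0.0738, 0.0992, 0.0923, 0.133 and 0.142), while SDC4, lower with Fucotrim I, was called there (0.0349), as were ITGB1, lower, and ITGB8, higher, with P-SiaFNEtoc (0.0392 and 0.0446). By the library names COL4A5 was called with Fucotrim II (0.00402). The mean in DMSO was under 50 counts for COL4A2, COL4A6, HSPG2, ITGA10, ITGB4 and NID2. DESeq2 gave no adjusted p for COL4A6 and HSPG2 with SGN-2FF and P-SiaFNEtoc. No library could be flagged as an outlier, since groups held at most 3 libraries.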
